A study of Mus musculus with 10 samples.

Results

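The genes described here are the axon guidance ligands and receptors of the semaphorin, Slit, netrin and ephrin systems, measured in Achilles tendon after conditional deletion of Mkx, which encodes the tendon homeobox transcription factor Mohawk. Members were taken by gene symbol alone, as every gene of the count table named as a class 3 to 7 semaphorin, plexin, Slit, Robo, netrin, Unc5 receptor, ephrin or Eph receptor. The rule uses no measured value, though it was set with earlier results of these data known. The rule found 66 genes of 32285 in the table, made up of 20 semaphorins, 9 plexins, 3 Slits, 4 Robos, 4 netrins, 4 Unc5 receptors, 8 ephrins and 14 Eph receptors. RNA came from 10 libraries of whole Achilles tendon, prepared by RamDA-seq, which reads total RNA from small amounts of material. All mice received tamoxifen at 20 mg/kg at 6 weeks of age, and tendons were taken 4 weeks later. In the conditional knockout, 1 Mkx allele was Mkx-CreER, whose name places the tamoxifen-activated Cre recombinase under Mkx, and the other was floxed, the target of that recombinase (Mkx-CreER/flox, n = 3). The Mkx-CreER/+ control carried the CreER allele without the floxed allele (n = 3), and the Mkx-flox/+ control carried the floxed allele without CreER (n = 4). The series text writes the floxed control without its second allele, so how many floxed copies it has is open to doubt, and the sources used here do not say whether the CreER allele disrupts Mkx.

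Guidance cues steer growing axons by attraction or repulsion, through receptors that reorganize the actin and microtubule skeleton of the growth cone. Semaphorins signal through plexins, with neuropilins as co-receptors for most class 3 members, Slits signal through Robo receptors, netrins through Dcc, neogenin and Unc5 receptors, and ephrins through Eph receptor tyrosine kinases on neighbouring cells. The same proteins act outside the nervous system on blood vessels, immune cells and connective tissue, and tendon is entered by nerves and vessels mainly through its surrounding sheath. In RNA of a whole tissue, fewer cells of a type and less RNA per cell cannot be told apart.

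Levels are CPM (each library's counts as parts of its total, scaled by the trimmed mean of M values), and a gene was called when its Benjamini-Hochberg adjusted p over 16017 tested genes was under 0.05 in edgeR's quasi-likelihood test. Library names give the genotype and the column number of the table. Library totals lay between 8680934 and 22656417 counts. The labels call the libraries of a genotype replicates without naming the mouse of each, so the p-values measure the spread between these libraries, part of which may be technical. Mkx itself stood at 26.1, 32.4 and 30.5 CPM in Mkx-CreER/flox libraries 1, 4 and 5, at 91.4, 93.8 and 93.5 CPM in Mkx-CreER/+ libraries 1, 2 and 4, and at 187, 177, 121 and 153 CPM in Mkx-flox/+ libraries 1 to 4. The genotypes did not overlap, and the log2 fold change of Mkx against both controls was -2.04 ± 0.18 (SE), with an edgeR adjusted p of 0.000149. Between the controls, Mkx-CreER/+ against Mkx-flox/+ gave -0.781 ± 0.176 for Mkx, which was not called (edgeR adjusted p = 0.489). Tendon marker genes identified the tissue, with a summed level of 23870 to 31320 CPM in Mkx-CreER/flox, 39950 to 51450 CPM in Mkx-CreER/+ and 62220 to 125600 CPM in Mkx-flox/+ over 10 genes. Of 6 epidermal genes, the keratins Krt5 and Krt14 had no counts in any library. The epidermal list still summed to 5.841 to 10.77 CPM in Mkx-CreER/flox, 9.419 to 31.44 CPM in Mkx-CreER/+ and 11.24 to 24.15 CPM in Mkx-flox/+. Its member Krtdap was called lower against both controls (-1.855 ± 0.422, SE, edgeR adjusted p = 0.0292).

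Library Mkx-CreER/flox 1 stood apart from its 2 replicates over all genes as well as in the guidance genes. Over all genes it differed from Mkx-CreER/flox 4 and 5 by 77.3 and 108 times counting error (chi-square per degree of freedom), against 34.8 between those 2. Pairs within a control genotype differed by 21.7 to 98.7 times. Its TMM scaling factor was 0.839, where the other libraries had 0.923 to 1.09. Of the 57 members that passed the filter on low counts, 26 (45.6%) had their lowest level of all 10 libraries in Mkx-CreER/flox 1, a library that held the lowest level of 23.8% of all tested genes. Mkx-CreER/flox 1 held the highest level of 1 member (1.75%), against 25.4% of all tested genes. Library Mkx-CreER/flox 5 lay at the other end, with the highest level of 19 members (33.3%), against 10.3% of all tested genes. Some results below are therefore also given without them.

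Against both controls together, 4 of the 57 tested members were called (7.02%), where 4.65% of all tested genes were called. Plxnb1 and Slit2 were higher in Mkx-CreER/flox, in a background of 3.03% of genes called higher, and Sema3a and Sema3b were lower, in a background of 1.62% called lower. The median log2 fold change of the 57 members was 0.03, beside 0.02 over all tested genes, and 30 members had a positive and 27 a negative fold change. The tested members thus had a median close to that of the whole table. Of the 66 members, 53 were tested and not called, and 9 did not pass the filter. The 3 Mkx-CreER/flox libraries lay wholly on one side of all 7 controls for 2 members (3.51%), Sema3a and Ephb2, where 6.92% of all tested genes did so.

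**Figure D1:**
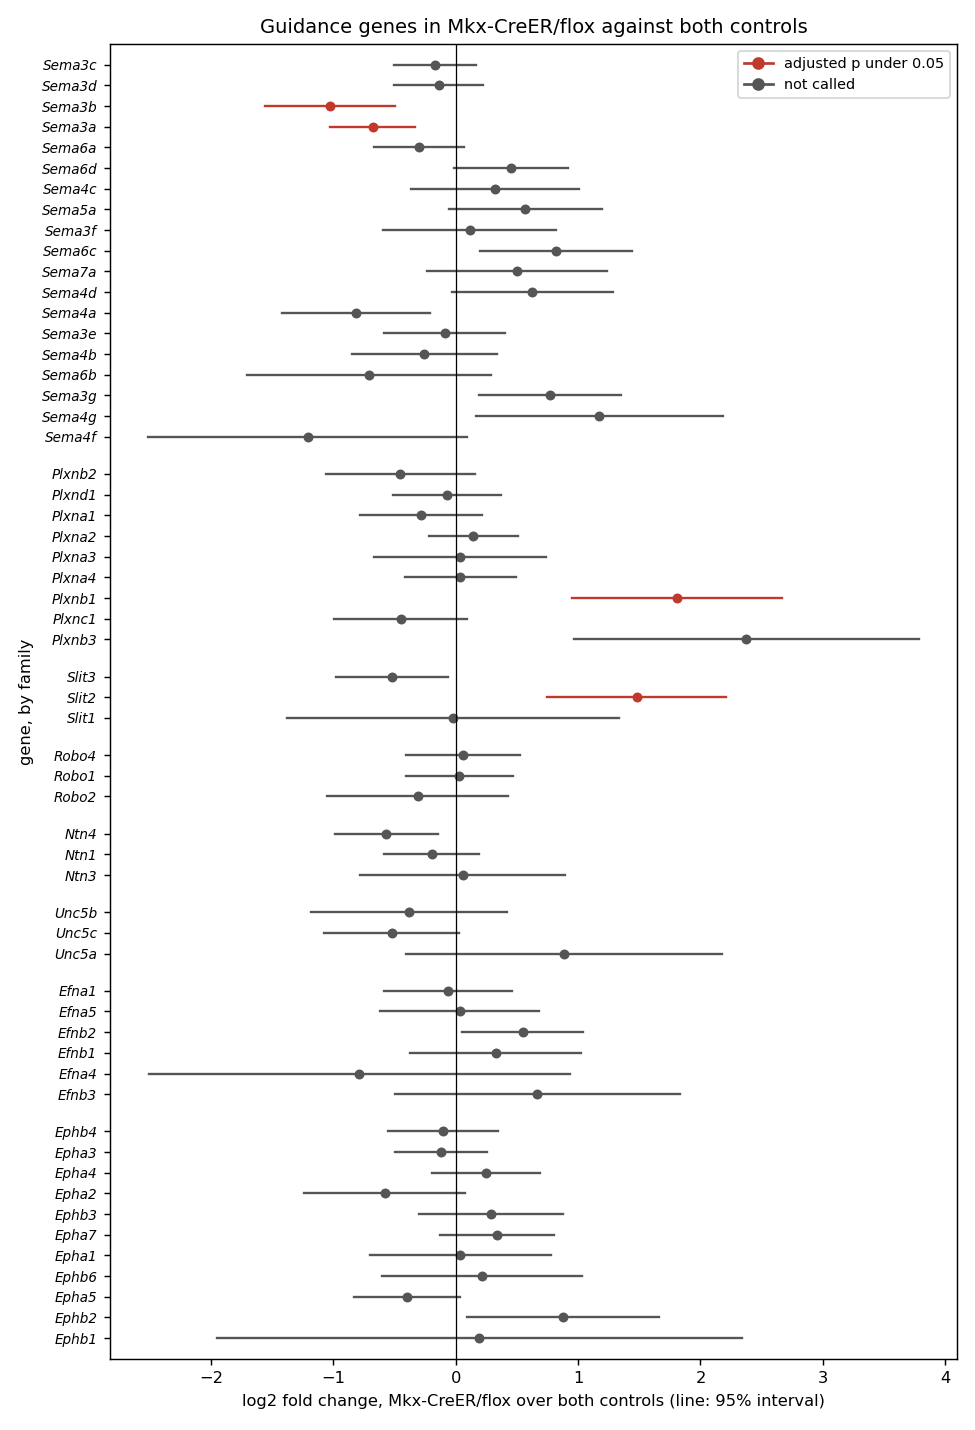
Log2 fold change of each tested guidance gene in Mkx-CreER/flox over the mean of both control genotypes (x axis), with genes in rows grouped by family and ordered by level. Lines are 95% intervals and red marks the 4 called genes, of which Plxnb1 (1.81) and Slit2 (1.48) lie right of 0 and Sema3a (-0.68) and Sema3b (-1.02) lie left of it.

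Promoters are shown for 3 of the 4 called members, 1 lower and 2 higher, so that genes called in opposite directions can be compared. Windows run from 250 bases before to 50 bases after the annotated start and come from RefSeq (GRCm38.p6), in which 57 of the 66 members had an entry. Capitals mark the E-box CANNTG, bound by basic helix-loop-helix factors, and ACAAAG or its reverse complement CTTTGT, a core of SOX factor sites. Both motifs were searched on both strands, and no match overlapped another. The Sema3a window is chr5:13396534-13396833, the Plxnb1 window is chr9:109095186-109095485 and the Slit2 window is chr5:47982905-47983204, all on the plus strand.
Sema3a: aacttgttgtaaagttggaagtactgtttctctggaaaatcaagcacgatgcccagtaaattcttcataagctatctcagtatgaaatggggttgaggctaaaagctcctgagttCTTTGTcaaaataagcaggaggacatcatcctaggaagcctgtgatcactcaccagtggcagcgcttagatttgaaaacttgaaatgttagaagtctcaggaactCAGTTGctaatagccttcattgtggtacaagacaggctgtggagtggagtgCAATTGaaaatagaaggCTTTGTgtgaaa
Plxnb1: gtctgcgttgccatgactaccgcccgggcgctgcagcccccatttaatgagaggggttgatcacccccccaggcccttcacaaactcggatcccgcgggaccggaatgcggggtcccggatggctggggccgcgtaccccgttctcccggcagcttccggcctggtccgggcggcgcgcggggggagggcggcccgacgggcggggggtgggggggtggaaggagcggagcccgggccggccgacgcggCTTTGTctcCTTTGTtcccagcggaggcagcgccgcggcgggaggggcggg
Slit2: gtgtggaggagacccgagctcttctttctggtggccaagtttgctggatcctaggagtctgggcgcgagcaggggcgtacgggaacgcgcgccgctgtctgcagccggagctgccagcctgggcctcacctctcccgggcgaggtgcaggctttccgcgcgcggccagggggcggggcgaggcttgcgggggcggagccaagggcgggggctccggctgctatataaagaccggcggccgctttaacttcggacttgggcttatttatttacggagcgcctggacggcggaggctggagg

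The Sema3a window held 2 E-boxes and 2 SOX cores, the Plxnb1 window held 0 E-boxes and 2 SOX cores, and the Slit2 window held neither motif. Among 32851 RefSeq promoters of the same length, 72.3% held at least 1 E-box and 18.7% at least 1 SOX core. The Plxnb1 and Slit2 windows were GC-rich, at 74.7% and 68.0%, and the Sema3a window was at 41.3%, around a median of 52.7% over all promoters. The RefSeq start of Sema3a lies inside the gene as GENCODE draws it (chromosome 5, 13125414 to 13602565), so the window belongs to an internal start. The matches describe letters in these windows and not bound sites.

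Among the semaphorins, 19 of 20 members were tested, 2 were called lower and 0 higher against both controls, and the family's median log2 fold change was -0.09. Sema3a is a secreted repellent that acts through neuropilin 1 with class A plexins. Its level was 79.7, 77.0 and 93.4 CPM in Mkx-CreER/flox libraries 1, 4 and 5, 105, 139 and 111 CPM in Mkx-CreER/+ libraries 1, 2 and 4, and 153, 159, 172 and 118 CPM in Mkx-flox/+ libraries 1 to 4. All Mkx-CreER/flox libraries lay below all 7 controls, and the controls overlapped each other. Sema3a averaged 83.3 ± 8.79 CPM in Mkx-CreER/flox (SD, n = 3), 118 ± 18.2 CPM in Mkx-CreER/+ (n = 3) and 150 ± 22.8 CPM in Mkx-flox/+ (n = 4). Its log2 fold change was -0.68 ± 0.16 against both controls (SE, edgeR adjusted p = 0.0334) and -0.85 ± 0.18 against Mkx-flox/+ (edgeR adjusted p = 0.014). Against Mkx-CreER/+ alone the estimate was -0.50 (95% interval -0.91 to -0.10), which did not pass the adjusted threshold (edgeR adjusted p = 0.371).

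Sema3b, another secreted class 3 semaphorin that binds neuropilins, differed from Sema3a in which genotypes overlapped. It stood at 18.5, 38.1 and 47.2 CPM in Mkx-CreER/flox libraries 1, 4 and 5, at 44.6, 53.3 and 43.2 CPM in Mkx-CreER/+ libraries 1, 2 and 4, and at 101, 96.4, 88.3 and 138 CPM in Mkx-flox/+ libraries 1 to 4. The Mkx-CreER/flox and Mkx-CreER/+ libraries overlapped, and both genotypes lay below every Mkx-flox/+ library. The fall against both controls was -1.02 ± 0.25 (SE, edgeR adjusted p = 0.0335), made up of -1.61 ± 0.27 against Mkx-flox/+ (edgeR adjusted p = 0.00594) and -0.44 (95% interval -1.03 to 0.16) against Mkx-CreER/+ (edgeR adjusted p = 0.612). Between the controls, Mkx-CreER/+ against Mkx-flox/+ gave -1.17 ± 0.27 for Sema3b, which edgeR did not call (adjusted p = 0.489) and DESeq2 did. Of the controls, Mkx-CreER/+ overlapped Mkx-CreER/flox in Sema3b and Mkx-flox/+ did not.

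The calls on both genes against the mean of both controls were near the threshold. Leaving out any of Mkx-CreER/+ 1 or 2, Mkx-CreER/flox 1 or 4, or Mkx-flox/+ 1 or 2 ended both calls, with fold changes of -0.73 to -0.61 for Sema3a and -1.10 to -0.75 for Sema3b, and Mkx-flox/+ 3 also ended that of Sema3a (adjusted p = 0.0607). Against Mkx-flox/+ alone, Sema3b was called with each of the 10 libraries left out and Sema3a with 9 of 10, the exception being Mkx-CreER/flox 4 (-0.80, edgeR adjusted p = 0.0587). Some tendon markers also fell, with 5 of 10 called lower against both controls (Mkx itself, Col1a1, Col1a2, Fmod and Kera), where 1.62% of all tested genes were called lower. Tnmd, Scx, Thbs4, Comp and Egr1 of that list were not called, with fold changes from -0.697 (Tnmd) to 0.305 (Egr1). Of 12 macrophage markers 10 were called lower, with a summed level of 756 to 843 CPM in Mkx-CreER/flox, 1091 to 2699 CPM in Mkx-CreER/+ and 1624 to 2689 CPM in Mkx-flox/+. No marker of either list was at 0 in every library, and the part of these cell types in the 2 semaphorins was not tested.

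**Figure D2:**
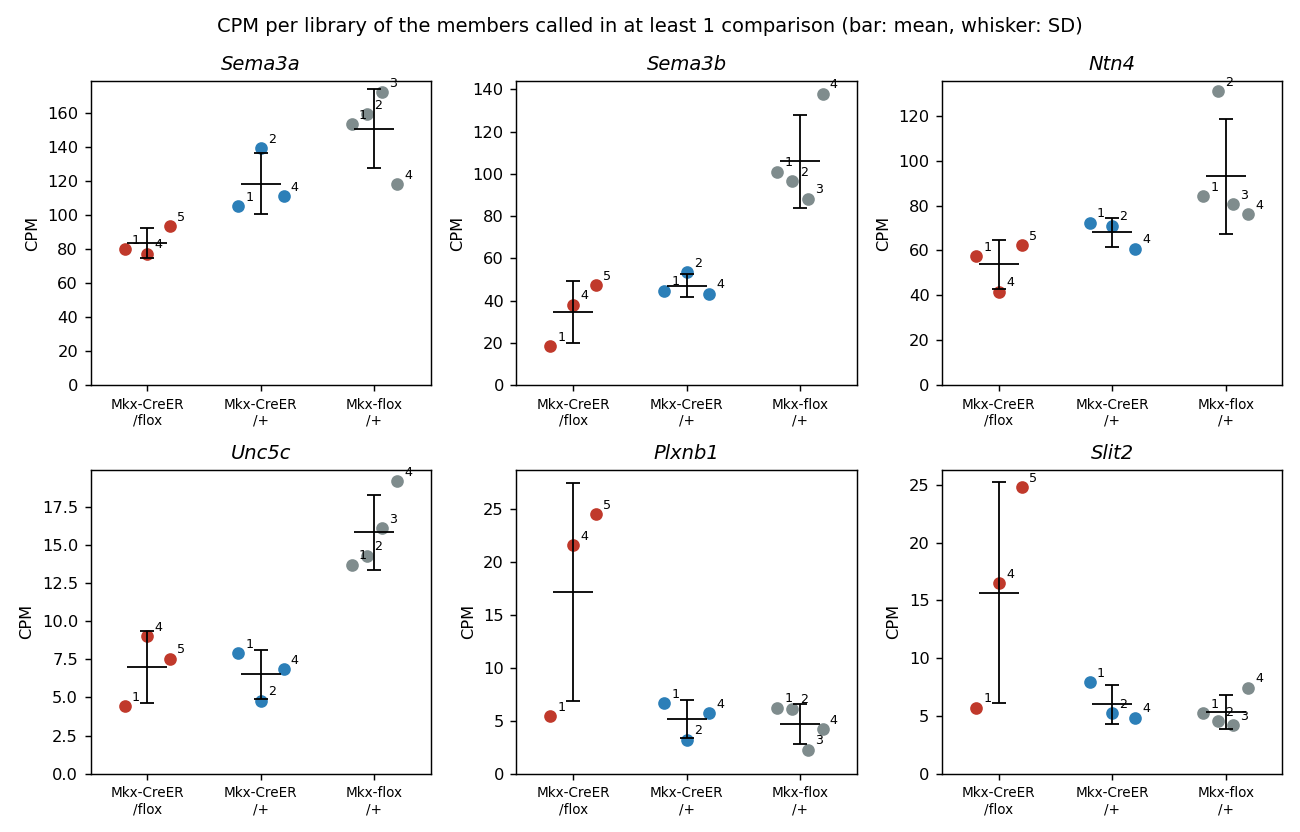
CPM of the 6 guidance genes called in at least 1 comparison (y axis, linear, from 0), in the Mkx-CreER/flox (red), Mkx-CreER/+ (blue) and Mkx-flox/+ (grey) libraries. Each point is a library with its number, the bar is the mean and the whisker the SD, and Plxnb1 and Slit2 are high in Mkx-CreER/flox 4 and 5 (16.5 to 24.8 CPM) but not in Mkx-CreER/flox 1 (5.43 and 5.7 CPM).

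The most abundant semaphorin per length was Sema3c, a secreted cue known from heart outflow tract development. It was at 317, 219 and 247 CPM in Mkx-CreER/flox libraries 1, 4 and 5, 289, 305 and 271 CPM in Mkx-CreER/+ libraries 1, 2 and 4, and 318, 298, 297 and 283 CPM in Mkx-flox/+ libraries 1 to 4. The ranges overlapped, and the fold change of -0.17 had a 95% interval of -0.51 to 0.17. Sema3d, its secreted relative, lay between 98.1 and 160 CPM over all libraries, with a fold change of -0.14 ± 0.17 (SE). A further 4 semaphorins had an unadjusted p under 0.05 without being called, a threshold that 3310 of the 16017 tested genes passed. Of these 4, Sema3g, a class 3 member of arterial endothelium, had a positive fold change of 0.77. Sema6c and Sema4g, both transmembrane members, had positive ones of 0.82 and 1.17, and the transmembrane Sema4a a negative one of -0.81. The edgeR adjusted p of the 4 was 0.113 to 0.175. With all libraries and no covariate, the semaphorin genes therefore held called falls in 2 secreted class 3 members. That fit called no change in the 6 tested genes of class 4, the 4 of class 6, Sema5a or Sema7a.

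All 9 plexins were tested, and 1 was called. Plxnb1 encodes plexin B1, the receptor for the transmembrane semaphorin Sema4d. Its level was 5.43, 21.6 and 24.5 CPM in Mkx-CreER/flox libraries 1, 4 and 5, 6.66, 3.21 and 5.72 CPM in Mkx-CreER/+ libraries 1, 2 and 4, and 6.23, 6.13, 2.27 and 4.2 CPM in Mkx-flox/+ libraries 1 to 4. Mkx-CreER/flox 4 and 5 lay above every control, while Mkx-CreER/flox 1 lay within the control range. Plxnb1 averaged 17.2 ± 10.3 CPM in Mkx-CreER/flox, 5.19 ± 1.79 CPM in Mkx-CreER/+ and 4.71 ± 1.87 CPM in Mkx-flox/+ (SD). Its log2 fold change was 1.81 ± 0.40 against both controls (SE, edgeR adjusted p = 0.0282) and 1.89 ± 0.47 against Mkx-flox/+ (edgeR adjusted p = 0.0287). Against Mkx-CreER/+ it was 1.73 (95% interval 0.65 to 2.82, edgeR adjusted p = 0.329). Of its exon length, 2.7% overlaps the gene model Gm7628 on the other strand, and the sources used here do not say whether counting used strand. The call against both controls ended without Mkx-CreER/+ 1 (1.90) or 2 (1.68) or Mkx-CreER/flox 4 (1.61) or 5 (1.46), and the call against Mkx-flox/+ ended without Mkx-CreER/flox 4 or 5 or any Mkx-flox/+ library (1.53 to 2.05), at edgeR adjusted p of 0.0543 to 0.0957.

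Sema4d, the ligand of plexin B1, was at 12.7, 18.3 and 21.8 CPM in Mkx-CreER/flox libraries 1, 4 and 5, 7.03, 16.1 and 15.1 CPM in Mkx-CreER/+ libraries 1, 2 and 4, and 6.33, 7.04, 12.0 and 15.5 CPM in Mkx-flox/+ libraries 1 to 4. The groups overlapped through Mkx-CreER/flox 1, and the fold change of 0.62 ± 0.31 (SE) was not called (edgeR adjusted p = 0.268). Plxnb3, the plexin that binds Sema5a, had the largest positive estimate of the 57 members at 2.38 ± 0.65, just outside the threshold (edgeR adjusted p = 0.0554). Its levels were 0.633, 5.5 and 14.6 CPM in Mkx-CreER/flox libraries 1, 4 and 5, 2.89, 1.05 and 0.547 CPM in Mkx-CreER/+ libraries 1, 2 and 4, and 1.65, 0.909, 0.796 and 1.56 CPM in Mkx-flox/+ libraries 1 to 4. As for Plxnb1, the high values were those of Mkx-CreER/flox 4 and 5. Sema4d and Plxnb3 are named here after their values were seen.

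Plxnb2, a receptor for class 4 semaphorins and the most abundant plexin per length, stood at 49.2, 93.6 and 150 CPM in Mkx-CreER/flox libraries 1, 4 and 5, 84.9, 143 and 129 CPM in Mkx-CreER/+ libraries 1, 2 and 4, and 108, 158, 166 and 166 CPM in Mkx-flox/+ libraries 1 to 4. The Mkx-CreER/flox libraries overlapped both controls, and 3 of the 4 Mkx-flox/+ libraries (158, 166 and 166 CPM) lay above all of them. The fold change of Plxnb2 was -0.45 (95% interval -1.06 to 0.16), -0.16 without Mkx-CreER/flox 1 and -0.91 without Mkx-CreER/flox 5 (edgeR adjusted p of 0.824 and 0.0592). The other 6 plexins had fold changes between -0.45 and 0.14, among them Plxnd1, the endothelial receptor for Sema3e, at -0.07 ± 0.21 (SE). The class A plexins Plxna1 to Plxna4, which pair with neuropilins, ranged from -0.28 to 0.14, and none was called. Of the Plxna1 exons, 10.7% overlap the gene model Gm26811 on the other strand.

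Slits and Robos held 1 called gene among 6 tested. Slit2 is a secreted ligand of Robo1 and Robo2. It was at 5.7, 16.5 and 24.8 CPM in Mkx-CreER/flox libraries 1, 4 and 5, 7.92, 5.26 and 4.84 CPM in Mkx-CreER/+ libraries 1, 2 and 4, and 5.26, 4.54, 4.21 and 7.43 CPM in Mkx-flox/+ libraries 1 to 4. Mkx-CreER/flox 4 and 5 again lay above every control and Mkx-CreER/flox 1 among them. The fold change was 1.48 ± 0.34 against both controls (SE, edgeR adjusted p = 0.0304), 1.56 ± 0.40 against Mkx-flox/+ (edgeR adjusted p = 0.0307) and 1.39 (95% interval 0.48 to 2.31) against Mkx-CreER/+ (edgeR adjusted p = 0.329). Slit2 thus differed from both controls by similar amounts, and only the comparisons that include Mkx-flox/+ passed the threshold. The call against both controls ended without Mkx-CreER/flox 5 (0.97), Mkx-CreER/flox 4 (1.44), Mkx-CreER/+ 1 (1.58) or 2 (1.43), or Mkx-flox/+ 1, 2 or 3 (1.42 to 1.46), and the call against Mkx-flox/+ ended without Mkx-CreER/flox 5 (1.05) or 4 (1.52) or Mkx-flox/+ 1, 2 or 3 (1.45 to 1.53), at edgeR adjusted p of 0.0537 to 0.12.

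Slit3 was the most abundant Slit and the second most abundant guidance gene per length. Its level was 85.4, 152 and 202 CPM in Mkx-CreER/flox libraries 1, 4 and 5, 181, 211 and 177 CPM in Mkx-CreER/+ libraries 1, 2 and 4, and 218, 228, 241 and 246 CPM in Mkx-flox/+ libraries 1 to 4. All Mkx-CreER/flox libraries lay below all Mkx-flox/+ libraries, and Mkx-CreER/flox 5 lay within the Mkx-CreER/+ range. The fold change against both controls was -0.52 ± 0.21 (SE) and was not called (edgeR adjusted p = 0.181), while without Mkx-CreER/flox 5 it was -0.84 and called (edgeR adjusted p = 0.0336). Slit1 lay between 0.195 and 1.08 CPM and had no measurable direction (-0.02 ± 0.63).

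The Robo receptors were not called in any comparison. Robo4, the endothelial member and the most abundant Robo per length, was at 11, 18.3 and 21.0 CPM in Mkx-CreER/flox libraries 1, 4 and 5, 18.4, 18.1 and 16.5 CPM in Mkx-CreER/+ libraries 1, 2 and 4, and 11.5, 13.9, 15.6 and 18.1 CPM in Mkx-flox/+ libraries 1 to 4. The genotypes overlapped, and the fold change was 0.06 (95% interval -0.41 to 0.52), with a sign that turned under other settings. Robo1, the broadly expressed Slit receptor, was at 28.6 to 51.8 CPM in all libraries with a fold change of 0.03 ± 0.20 (SE), and Robo2 at 3.5 to 10.6 CPM with -0.31 ± 0.35. The receptors' intervals therefore include moderate changes either way.

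Netrins and Unc5 receptors held no called gene against both controls and 2 against Mkx-flox/+. Ntn4, a laminin-related netrin of basement membranes, was at 57.4, 41.5 and 62.4 CPM in Mkx-CreER/flox libraries 1, 4 and 5, 72.3, 71.0 and 60.8 CPM in Mkx-CreER/+ libraries 1, 2 and 4, and 84.2, 131, 80.6 and 76.1 CPM in Mkx-flox/+ libraries 1 to 4. All Mkx-CreER/flox libraries lay below all Mkx-flox/+ libraries, and Mkx-CreER/flox 5 exceeded the lowest Mkx-CreER/+ library. The fold change was -0.57 ± 0.20 against both controls (SE, edgeR adjusted p = 0.112) and -0.79 ± 0.21 against Mkx-flox/+ (edgeR adjusted p = 0.0382). That call was lost on leaving out Mkx-CreER/+ 2 (-0.79), Mkx-CreER/flox 1 (-0.86) or 4 (-0.64), or Mkx-flox/+ 1 (-0.85), 2 (-0.58) or 3 (-0.85), with edgeR adjusted p of 0.0511 to 0.16.

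Unc5c, a netrin receptor that mediates repulsion, separated Mkx-flox/+ from both genotypes that carry CreER. It was at 4.43, 9.03 and 7.54 CPM in Mkx-CreER/flox libraries 1, 4 and 5, 7.92, 4.78 and 6.85 CPM in Mkx-CreER/+ libraries 1, 2 and 4, and 13.7, 14.3, 16.1 and 19.2 CPM in Mkx-flox/+ libraries 1 to 4. Mkx-CreER/flox and Mkx-CreER/+ overlapped throughout, and all their libraries lay below all Mkx-flox/+ libraries. The fold change was -1.16 ± 0.29 against Mkx-flox/+ (SE, edgeR adjusted p = 0.0258), -0.52 ± 0.26 against both controls (adjusted p = 0.27) and 0.12 (95% interval -0.52 to 0.76) against Mkx-CreER/+ (adjusted p = 0.93). Mkx-CreER/+ against Mkx-flox/+ gave -1.28 ± 0.29, which edgeR did not call (adjusted p = 0.489) and DESeq2 did. The call against Mkx-flox/+ ended without Mkx-CreER/flox 1 (-0.95), or without Mkx-flox/+ 1 (-1.24), 3 (-1.16) or 4 (-1.07), at edgeR adjusted p of 0.0507 to 0.0657.

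Ntn1, the netrin that attracts axons through Dcc and repels them through Unc5 receptors, was at 45.9 to 79.9 CPM in Mkx-CreER/flox, 53.4 to 64.1 CPM in Mkx-CreER/+ and 67.0 to 81.0 CPM in Mkx-flox/+. Its fold change of -0.19 ± 0.18 (SE) was not called. Unc5b, the endothelial Unc5 receptor and the most abundant of the family per length, was at 10.8, 25.9 and 35.6 CPM in Mkx-CreER/flox libraries 1, 4 and 5, 18.8, 17.5 and 43.9 CPM in Mkx-CreER/+ libraries 1, 2 and 4, and 50.2, 30.6, 28.0 and 39.8 CPM in Mkx-flox/+ libraries 1 to 4. The genotypes overlapped, and the fold change was -0.38 (95% interval -1.19 to 0.42), or -0.06 without Mkx-CreER/flox 1 and -0.78 without Mkx-CreER/flox 5 (edgeR adjusted p of 0.963 and 0.288). Unc5a lay between 0 and 3.36 CPM, with a fold change of 0.88 ± 0.60, and Ntn3 between 1.63 and 6.65 CPM, with 0.06 ± 0.39.

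With all libraries and no covariate, edgeR called none of the 17 tested ephrins and Eph receptors in any comparison. The smallest p against both controls belonged to Ephb2 and Efnb2, a receptor of B-type ephrins and a B-type ephrin of arterial endothelium. Ephb2 was at 5.16, 6.14 and 6.43 CPM in Mkx-CreER/flox libraries 1, 4 and 5, 3.62, 1.58 and 3.95 CPM in Mkx-CreER/+ libraries 1, 2 and 4, and 4.09, 1.36, 4.83 and 3.12 CPM in Mkx-flox/+ libraries 1 to 4. Every Mkx-CreER/flox library lay above every control, and the fold change was 0.88 ± 0.37 (SE, unadjusted p = 0.0303 and adjusted p = 0.189 in edgeR). Efnb2 was at 22.1, 16.1 and 16.4 CPM in Mkx-CreER/flox libraries 1, 4 and 5, 16.6, 10.1 and 12.7 CPM in Mkx-CreER/+ libraries 1, 2 and 4, and 9.73, 15.8, 8.52 and 13.4 CPM in Mkx-flox/+ libraries 1 to 4. Efnb2 overlapped between Mkx-CreER/flox and Mkx-CreER/+ only through Mkx-CreER/+ 1, and its fold change was 0.55 ± 0.23 (edgeR adjusted p = 0.2).

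Ephb4, the venous receptor of Efnb2, was the most abundant Eph receptor per length, at 18.2, 36.4 and 38.3 CPM in Mkx-CreER/flox libraries 1, 4 and 5, 30.0, 36.6 and 35.3 CPM in Mkx-CreER/+ libraries 1, 2 and 4, and 28.0, 36.1, 34.0 and 33.0 CPM in Mkx-flox/+ libraries 1 to 4. Apart from Mkx-CreER/flox 1 the libraries lay close together, and the fold change was -0.10 (95% interval -0.56 to 0.34), with a sign that turned under other settings. Efna1, the most abundant ephrin per length and an A-type ligand anchored in the membrane by a lipid, was at 15.6, 10.7 and 13.7 CPM in Mkx-CreER/flox libraries 1, 4 and 5, 14.1, 10.1 and 12.1 CPM in Mkx-CreER/+ libraries 1, 2 and 4, and 16.8, 20.2, 9.21 and 17.6 CPM in Mkx-flox/+ libraries 1 to 4. Its ranges overlapped, its fold change was -0.06 (95% interval -0.58 to 0.46), and its sign also turned. Among the A-type receptors, Epha3 (24.3 to 36.9 CPM over all libraries) and Epha4 (17.2 to 33.8 CPM) had fold changes of -0.12 ± 0.18 and 0.25 ± 0.21. Epha2 and Epha5 had negative estimates, -0.58 ± 0.31 and -0.40 ± 0.20, and neither was called (edgeR adjusted p of 0.31 and 0.284). Epha2 was called lower against both controls with a Schwann cell or an endothelial marker score as a covariate.

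Levels between genes were compared per kilobase of exon. Sema3c led at a mean of 39.8 CPM per kb over the 10 libraries, followed by Slit3 at 32.0, Ntn4 at 19.7, Plxnb2 at 16.2, Sema3d at 15.1, Sema3b at 14 and Ntn1 at 10.3 CPM per kb. Of the tested members, 13 had at least 5 CPM per kb, 27 had between 1 and 5, and 17 had less than 1. Secreted ligands held 6 of the 7 highest places, and no neighbours in the order of tested members had ranges that did not overlap. The called genes came from both ends of this order, with Sema3a at 8.7 CPM per kb, and Plxnb1 and Slit2 at 0.896 and 0.34 CPM per kb.

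**Figure D3:**
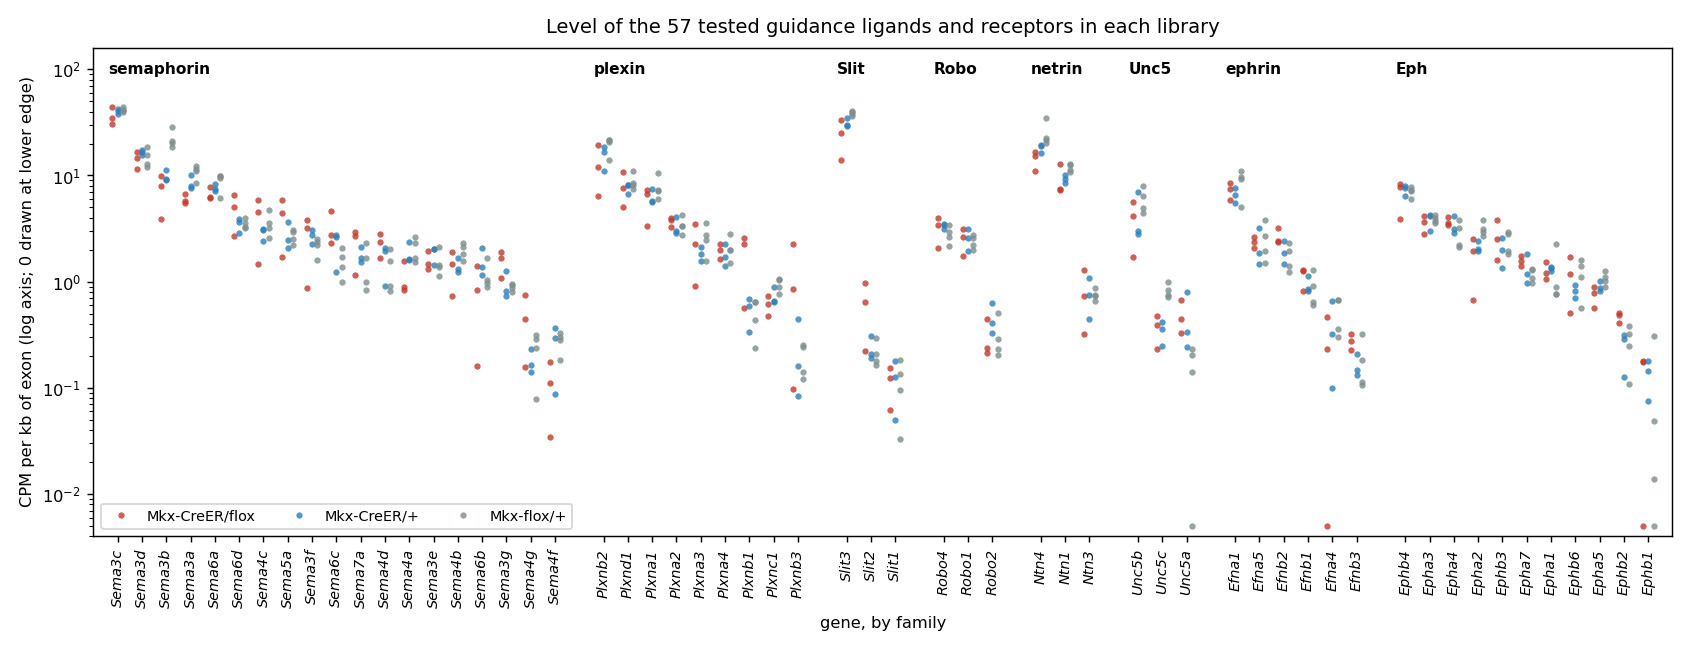
Level of each tested member in CPM per kilobase of exon (y axis, log scale), with genes grouped by family along the x axis and ordered by mean level. Each point is a library, red for Mkx-CreER/flox, blue for Mkx-CreER/+ and grey for Mkx-flox/+, libraries with 0 counts lie at the lower edge, and Sema3c (39.8 on average) and Slit3 (32.0) lead.

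The 9 members that did not pass the filter were Sema5b, Robo3, Ntn5, Unc5d, Efna2, Efna3, Epha10, Epha6 and Epha8, with 0 to 76 counts summed over all libraries. Unc5d and Epha8 had no counts in any library, where 3 counts correspond to 0.126 to 0.36 CPM, a limit that covers counting error only. Epha6, an A-type Eph receptor, had 0, 15 and 31 counts in Mkx-CreER/flox libraries 1, 4 and 5, 2, 0 and 0 counts in Mkx-CreER/+ libraries 1, 2 and 4, and 0 counts in each Mkx-flox/+ library. Ntn5 had 1, 25 and 5 counts in Mkx-CreER/flox libraries 1, 4 and 5, 1, 3 and 1 counts in Mkx-CreER/+ libraries 1, 2 and 4, and 0 or 1 counts in Mkx-flox/+ libraries, but 23.4% of its exon length overlaps Sec1 on the other strand. Both genes were thus seen mainly in Mkx-CreER/flox 4 and 5, and they are named here after their counts were seen.

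Each control alone gave a different count. Against Mkx-CreER/+, edgeR called 0 of 57 members, where 1 gene of 16017 was called (0.00624%). That gene was Mkx itself (-1.645 ± 0.191, SE, edgeR adjusted p = 0.00637). At an unadjusted p under 0.05 in edgeR there were 8 of the 57 members, beside 1720 of the 16017 tested genes. DESeq2 also called 0 members and limma voom with sample quality weights called 2, Plxnb1 and Slit2. Against Mkx-flox/+, edgeR called 6 members (10.5%), where 7.27% of all tested genes were called. These were Plxnb1 and Slit2, higher (4.37% of all genes were called higher), and Sema3a, Sema3b, Ntn4 and Unc5c, lower (2.9% of all genes were called lower). Without Mkx-CreER/flox 4, or Mkx-flox/+ 1, 2 or 3, the count against Mkx-flox/+ was 2, 2, 3 and 2, and Sema3b was called in each, where 3.16%, 2.86%, 4.03% and 3.45% of all tested genes were called. Without Mkx-CreER/flox 1 or 5 it was 8 in each fit (13.6% and 14% of members), where 3.83% and 9.62% of all tested genes were called. These 2 libraries were singled out by the members' own values, so the shares without them are no separate evidence. Both comparisons share the Mkx-CreER/flox libraries, so they are not independent.

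The libraries of Mkx-CreER/flox and Mkx-CreER/+ did not overlap for 4 members (7.02%), Efnb3 and Ephb2 above and Sema3a and Sema4a below, where 12.8% of all tested genes did not overlap. Against Mkx-flox/+ they did not overlap for 15 members (26.3%), where 19.5% of all tested genes did not. Of these 15, Sema3g, Sema6c, Unc5a, Efnb2, Epha7 and Ephb2 lay above, and Sema3a, Sema3b, Sema4f, Plxnc1, Slit3, Ntn4, Unc5c, Epha2 and Epha5 lay below. Sema3a and Ephb2 were the members separated in both comparisons.

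Between the controls, Mkx-CreER/+ against Mkx-flox/+, edgeR called 0 of 57 members and 0% of all tested genes. At an unadjusted p under 0.05 there were 3 members (Sema3b, Unc5a and Unc5c), beside 798 of the 16017 tested genes. DESeq2 called Sema3b and Unc5c, both lower in Mkx-CreER/+, and limma voom called none. The control genotypes did not overlap for 7 members (12.3%), where 6.77% of all tested genes did not. Unc5a lay higher in Mkx-CreER/+, and Sema3b, Slit3, Ntn1, Ntn4, Unc5c and Epha2 lay lower. Sema3b, Slit3, Ntn4, Unc5c and Epha2 were also lower in every Mkx-CreER/flox library than in any Mkx-flox/+ library, a count that rests on the same 4 Mkx-flox/+ libraries in both comparisons.

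Plxnb1, Slit2 and Plxnb3 were high in the same 2 libraries. Without Mkx-CreER/flox 1, 6 of 59 tested members were called against both controls (10.2%), all higher, where 1.29% of all tested genes were called. These were Plxnb1, Slit2, Plxnb3, Sema5a, Sema6d and Epha6, of which Epha6 could pass the filter only through the 2 remaining knockout libraries. The fold change of Plxnb1 was then 2.21 and that of Slit2 1.85. Mkx-CreER/flox 1 was singled out above because many members were lowest in it. Calls of higher members without it therefore follow in part from the same values, and their share is no separate evidence about the guidance genes. Sema5a, a transmembrane semaphorin with thrombospondin repeats, was at 31.8, 82.2 and 110 CPM in Mkx-CreER/flox libraries 1, 4 and 5, 68.1, 46.5 and 38.7 CPM in Mkx-CreER/+ libraries 1, 2 and 4, and 47.0, 41.1, 57.1 and 54.5 CPM in Mkx-flox/+ libraries 1 to 4. Sema6d, a transmembrane ligand of Plxna1, was at 28.4, 53.9 and 68.6 CPM in Mkx-CreER/flox libraries 1, 4 and 5, 41.0, 30.1 and 38.9 CPM in Mkx-CreER/+ libraries 1, 2 and 4, and 34.3, 37.7, 33.9 and 42.1 CPM in Mkx-flox/+ libraries 1 to 4. Both were above all controls in Mkx-CreER/flox 4 and 5 and below all controls in Mkx-CreER/flox 1, and with all libraries neither was called (0.57 ± 0.29 and 0.45 ± 0.22, SE).

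Schwann cell and nerve markers moved across the libraries in a like order. Their score, the mean log2 CPM of 14 genes, was 2.05, 4.47 and 5.46 in Mkx-CreER/flox libraries 1, 4 and 5, 3.67, 2.30 and 2.17 in Mkx-CreER/+ libraries 1, 2 and 4, and 2.70, 1.91, 2.35 and 3.23 in Mkx-flox/+ libraries 1 to 4. The summed level of the list was 589 to 2525 CPM in Mkx-CreER/flox, 560 to 1116 CPM in Mkx-CreER/+ and 589 to 1003 CPM in Mkx-flox/+, and no marker was at 0 in all libraries of a genotype. Of 13 tested markers, 2 were called higher against both controls, Cdh19, a cadherin of Schwann cell precursors (2.72 ± 0.39, SE, edgeR adjusted p = 0.00715), and Erbb3, a neuregulin receptor (1.46 ± 0.32, adjusted p = 0.027). The knockout libraries with high Plxnb1 and Slit2 were those with high Schwann cell markers, and other marker lists had the same order over Mkx-CreER/flox 1, 4 and 5. The mural cell score was 5.20, 6.07 and 6.37 in these libraries, 5.75, 4.88 and 4.83 in Mkx-CreER/+ libraries 1, 2 and 4, and 5.13, 4.83, 4.76 and 5.35 in Mkx-flox/+ libraries 1 to 4. The endothelial score was 5.38, 5.61 and 5.84 in Mkx-CreER/flox 1, 4 and 5, 5.53, 5.57 and 5.31 in Mkx-CreER/+ libraries 1, 2 and 4, and 5.12, 5.10, 5.06 and 5.40 in Mkx-flox/+ libraries 1 to 4. Mkx-CreER/flox 4 and 5 had the highest Schwann cell, mural and endothelial scores of all 10 libraries. The neuron score was -2.02, -0.86 and -0.46 in Mkx-CreER/flox 1, 4 and 5, -1.78 to -1.17 in Mkx-CreER/+ and -1.99 to -0.69 in Mkx-flox/+, so that Mkx-CreER/flox 4 lay within the controls.

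With the Schwann cell score as a covariate, the estimate for Plxnb1 against both controls was 0.85 (edgeR adjusted p = 0.221) and for Slit2 0.45 (adjusted p = 0.269), and neither was called. With the endothelial score as a covariate they were 1.11 (adjusted p = 0.306) and 0.36 (adjusted p = 0.578). The endothelial list had 1 of 12 markers called higher, Kdr, with a summed level of 675 to 906 CPM in Mkx-CreER/flox, 589 to 709 CPM in Mkx-CreER/+ and 502 to 677 CPM in Mkx-flox/+. Mural cell markers had 2 of 11 called higher, Rgs5 and Abcc9, with 1315 to 1853 CPM in Mkx-CreER/flox, 816 to 1147 CPM in Mkx-CreER/+ and 791 to 1060 CPM in Mkx-flox/+, and their part was not tested. With the Schwann cell score as a covariate, 5 members were called against both controls, all lower, namely Sema3b, Sema6b, Slit3, Unc5c and Epha2 (8.77% of those tested), where 11% of all tested genes were called. With the endothelial score 4 members (7.02%) were called, where 8.76% of all tested genes were. Which guidance gene came from which cell type cannot be told apart in these bulk libraries.

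**Figure D4:**
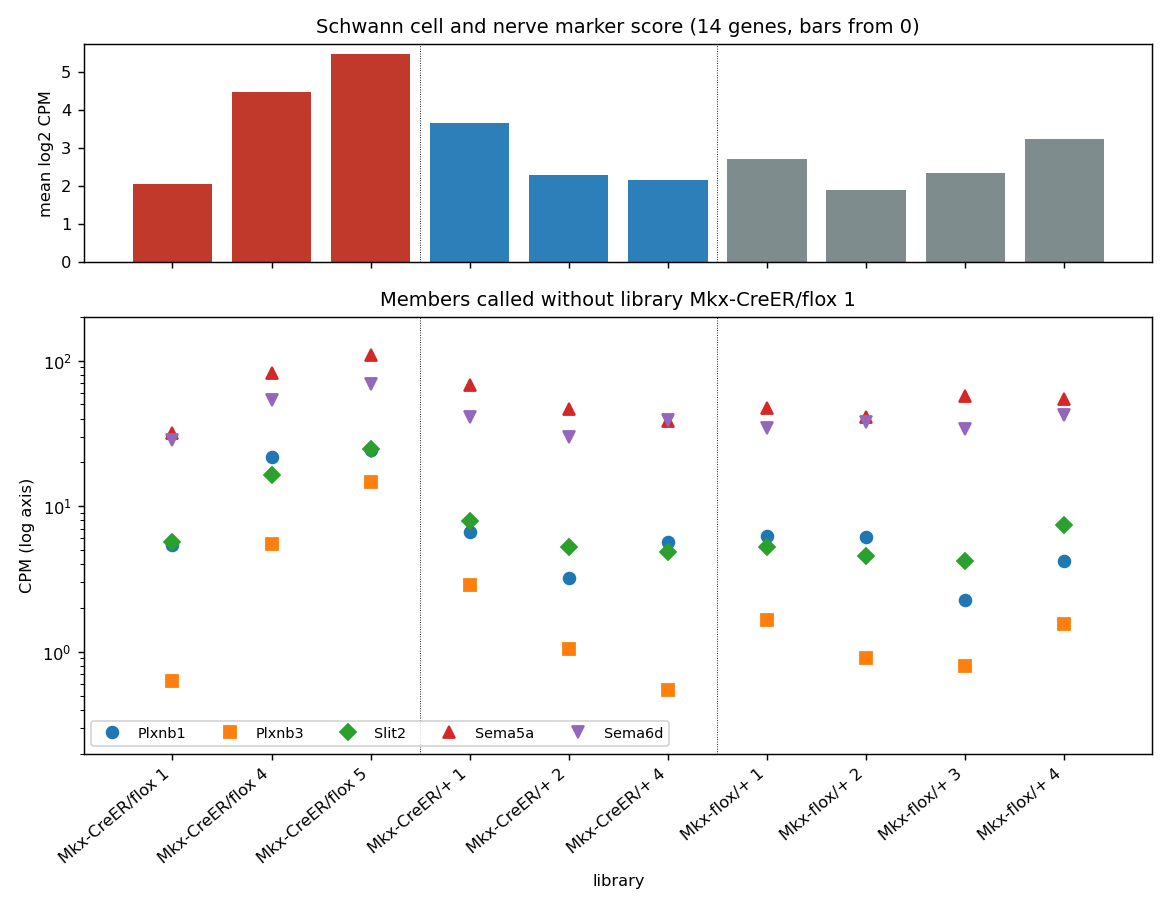
Upper plot, Schwann cell and nerve marker score (mean log2 CPM of 14 genes, bars from 0) in each library along the x axis, red for Mkx-CreER/flox, blue for Mkx-CreER/+ and grey for Mkx-flox/+. Lower plot, CPM (log scale) of 5 of the 6 members called without Mkx-CreER/flox 1 (Epha6 is left out for its counts of 0), all lower in Mkx-CreER/flox 1 than in Mkx-CreER/flox 4 and 5, as is the score (2.05, against 4.47 and 5.46).

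Skeletal muscle RNA also differed between libraries. Of 15 muscle markers, 4 were called higher against both controls (Myh2, Mb, Tcap and Des), where 3.03% of all tested genes were called higher. The rest were not called, with fold changes from -1.114 (Myh4) to 0.695 (Acta1). The summed level of the list was 17670 to 32130 CPM in Mkx-CreER/flox, 11660 to 39250 CPM in Mkx-CreER/+ and 5448 to 24490 CPM in Mkx-flox/+, with no marker at 0. With the muscle score as a covariate, Plxnb1 was the only member called against both controls, at 2.24 (edgeR adjusted p = 0.0167), where 1.37% of all tested genes were called. Sema3a and Sema3b kept their estimates in that fit, -0.70 (adjusted p = 0.0699) and -1.05 (adjusted p = 0.0646), and Slit2 was at 1.52 (adjusted p = 0.0606). Sema3a, Sema3b and Slit2 thus crossed the threshold with little change in their fold changes.

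The count of called members depended on single libraries. Leaving out Mkx-CreER/+ 1, Mkx-CreER/+ 2 or Mkx-CreER/flox 4 gave 0 edgeR calls against both controls, where 0.459%, 0.406% and 0.39% of all tested genes were called. In these fits 15, 12 and 10 members had an unadjusted p under 0.05, and the share of all genes at that threshold was not computed. With all libraries, 13 of the 57 members and 3310 of the 16017 tested genes had such a p. Leaving out Mkx-flox/+ 1, 2 or 3 gave 1, 1 and 2 calls (1.75%, 1.75% and 3.57% of members), where 1.55%, 2.21% and 2.39% of all tested genes were called. Leaving out Mkx-CreER/flox 5 gave 3 (5.26%), Sema3a, Sema3b and Slit3, all lower, where 6.4% of all tested genes were called. Plxnb1 was called in 6 of the 10 fits without a library, Sema3b in 4, and Sema3a and Slit2 in 3 each.

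Genes that work with these ligands and receptors were taken from 2 further lists. Of 32 listed co-receptors, regulators and further guidance cues, 26 were tested, 0 were called higher and 1 lower against both controls, where 4.65% of all tested genes were called, with a median log2 fold change of 0.18. At an unadjusted p under 0.05 there were 9 of the 26, beside 3310 of the 16017 tested genes. The neuropilins Nrp1 and Nrp2, co-receptors of class 3 semaphorins, were at 96.8, 134 and 102 CPM and at 72.9, 87.5 and 117 CPM in Mkx-CreER/flox libraries 1, 4 and 5, with fold changes of 0.13 ± 0.17 and -0.34 ± 0.16 (SE) against both controls. Neo1, the netrin receptor neogenin, was at 191 to 216 CPM in Mkx-CreER/flox, 183 to 211 CPM in Mkx-CreER/+ and 208 to 235 CPM in Mkx-flox/+, with a fold change of -0.02 ± 0.14, while the neuronal netrin receptor Dcc did not exceed 0.074 CPM. Neo1 was thus present in every library, and Dcc was at or near 0 in all.

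The called gene of that list was Flrt1, a leucine-rich repeat transmembrane protein whose family binds Unc5 receptors. It was at 12.8, 11.6 and 15.0 CPM in Mkx-CreER/flox libraries 1, 4 and 5, 19.4, 20.7 and 18.9 CPM in Mkx-CreER/+ libraries 1, 2 and 4, and 59.6, 84.1, 35.9 and 29.5 CPM in Mkx-flox/+ libraries 1 to 4. The 3 genotypes did not overlap. The fold change of Flrt1 was -1.29 ± 0.28 against both controls (SE, edgeR adjusted p = 0.0268) and -1.99 ± 0.31 against Mkx-flox/+ (adjusted p = 0.00425). Against Mkx-CreER/+ it was -0.58 ± 0.32 and was not called (edgeR adjusted p = 0.541), while Mkx-CreER/+ against Mkx-flox/+ gave -1.41 ± 0.30 (adjusted p = 0.489). The call against both controls ended without Mkx-CreER/+ 1 or 2, Mkx-CreER/flox 1 or 4, or Mkx-flox/+ 1, at -1.31 to -1.21 (adjusted p of 0.0512 to 0.091).

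Of 49 intracellular effectors, all were tested, and 3 were called higher and 0 lower against both controls, where 3.03% of all tested genes were called higher and 1.62% lower. At an unadjusted p under 0.05 there were 7 of the 49, beside 3310 of the 16017 tested genes. The median log2 fold change of the effectors was 0.02, and 2 of the 3 called genes are described here. Enah, an Ena/VASP protein that extends actin filaments in growth cones and other cells, was at 207, 134 and 120 CPM in Mkx-CreER/flox libraries 1, 4 and 5, 60.1, 44.8 and 111 CPM in Mkx-CreER/+ libraries 1, 2 and 4, and 45.2, 39.3, 34.6 and 52.5 CPM in Mkx-flox/+ libraries 1 to 4. All knockout libraries lay above all controls, and Enah rose by 1.47 ± 0.24 (SE, edgeR adjusted p = 0.0142), or by 1.17 (adjusted p = 0.0504) without Mkx-CreER/flox 1. Against Mkx-CreER/+ alone Enah was at 1.09 ± 0.30 and was not called (edgeR adjusted p = 0.329). Micall1, a MICAL-like protein of endosome recycling, was at 25.1, 18.8 and 23.3 CPM in Mkx-CreER/flox libraries 1, 4 and 5, 12.4, 11.3 and 17.0 CPM in Mkx-CreER/+ libraries 1, 2 and 4, and 12.8, 12.5, 12.0 and 7.67 CPM in Mkx-flox/+ libraries 1 to 4. It lay above every control and rose by 0.85 ± 0.21 (adjusted p = 0.0349), but 26.7% of its exon length overlaps 1700088E04Rik on the other strand. Against Mkx-CreER/+ alone it was at 0.72 ± 0.25 and was not called (edgeR adjusted p = 0.344). The call on Micall1 ended when Mkx-CreER/+ 1 or 2, any Mkx-CreER/flox library, or Mkx-flox/+ 1, 2 or 3 was left out, at 0.74 to 0.96.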

How the data were processed

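Counts per Ensembl gene were deposited by the authors as 1 table of 32285 genes and 10 libraries, with no normalization. Per the submitters' processing notes, fastp, STAR and mm10 were used; their versions, the counting tool, the annotation and the strand setting were not stated. Columns of Mkx-flox/+ carry the labels' replicate numbers, while those of Mkx-CreER/+ (1, 2, 4) and Mkx-CreER/flox (1, 4, 5) could be matched by genotype alone. GENCODE vM21 (GRCm38) gave symbols for 32235 identifiers, and exon lengths.

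A robust quasi-likelihood model (edgeR 4.0.16 in R 4.3.3; filterByExpr, TMM scaling) covered all libraries, with a term per genotype and equal weights for the control genotypes. In 3 simulations of counts with 200 planted changes, none in the least abundant genes, it called 47% of 2-fold changes against both controls. Against Mkx-CreER/+ it called 29.7% and against Mkx-flox/+ 34%. For 4-fold changes these shares were 91%, 82.7% and 87.7%, in the same order. Many 2-fold changes would thus go uncalled. Pairs of replicates differed by 21.7 to 108 times counting error (chi-square per degree of freedom). Alternatives were RLE and upper-quartile scaling, DESeq2 1.42.0, limma 3.58.1 voom with quality weights, other filters (none, or at least 1 CPM in 3 libraries), marker scores (mean log2 CPM, prior count 2) as covariates, fits of the compared groups alone, pooled controls, omission of each library and, chosen after seeing the data, the column number as a block.

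Members and lists were chosen with earlier results of these data known. Values in every library are given for called members, the member of highest CPM per kb in each family, and the 2 of smallest p in a ligand-receptor system without a call. Other guidance genes are named where called against both controls, up to 4 per list. Members outside this rule were chosen after their values were seen. Hjv, on the co-receptor list, was not matched. Of the genes this rule takes, 1 is not reported here.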

Additional observations from a re-analysis of the deposited data

Results flagged for a closer look

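In the 4 Mkx-flox/+ libraries, the lowest or highest library was tested for its distance from the others for each of the 57 tested members, by Dixon's 95% critical value for the gap over the range. Of these, 5 members were past it, where chance gives about 1 in 20. Sema6a was at 54.4 CPM in Mkx-flox/+ 3, against 82.6 to 87.6 CPM in the others. Plxnb2 was at 108 CPM in Mkx-flox/+ 1, against 158 to 166 CPM. Ntn4 was at 131 CPM in Mkx-flox/+ 2, against 76.1 to 84.2 CPM, and its call against Mkx-flox/+ ended without that library (-0.58, edgeR adjusted p = 0.0946). Epha1 was at 8.86 CPM in Mkx-flox/+ 2, against 3.01 to 3.48 CPM, and 6.0% of its exon length overlaps Zyx on the other strand. Ephb1 was at 2.16 CPM in Mkx-flox/+ 4, against 0 to 0.341 CPM. The groups of 3 libraries were not tested.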

How the results depend on the processing

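The column numbers of Mkx-CreER/+ (1, 2 and 4) and Mkx-CreER/flox (1, 4 and 5) are not those the labels give the replicates, so they are not known to pair libraries, and over all tested genes 1 of 7 same-numbered pairs had deviations from the genotype means that correlated above 0.1 (-0.06 to 0.14). A fit with the column number as a replicate block, chosen after seeing the data and with 3 residual degrees of freedom, called 1 member against both controls (Sema3b, where 0.743% of all genes were called), 2 against Mkx-flox/+ (Sema3b and Plxnb2, where 3.35% were) and 0 in the other comparisons. Numbers 3 and 5 belong to 1 library each, Mkx-flox/+ 3 and Mkx-CreER/flox 5. In the block fit each of these had a term of its own, so both in effect dropped out of the genotype comparison. There Mkx was at -2.10 against both controls (edgeR adjusted p = 0.0074). The count of members called against both controls was 4, 16 with limma voom (18.7% of all genes called), 1 with the muscle covariate (1.37%) and 0 to 6 with 1 library left out. Against Mkx-CreER/+ it was 0, and 2 with limma voom (4.46%). Against Mkx-flox/+ it was 6, 16 with limma voom (17.8%), 3 with the muscle covariate (2.61%) and 2 to 8 with 1 library left out. The count of 8 came without Mkx-CreER/flox 1 (3.83% of all genes called) and without Mkx-CreER/flox 5 (9.62%). Between the controls the count was 0, 2 with DESeq2 (0.303%) and 1 with the endothelial covariate (Sema3b, 0.0562%). The 4 genes called against both controls were also called by DESeq2, by limma voom, under RLE and upper-quartile scaling, and under both filters. Taking the 7 controls as 1 group ended the call on Sema3b (-1.22, edgeR adjusted p = 0.11). The endothelial covariate ended both calls on Sema3a (-0.66 against both controls and -0.82 against Mkx-flox/+, edgeR adjusted p of 0.0801 and 0.0935), and the Schwann cell covariate ended that against both controls (-0.65, adjusted p = 0.055). Directions turned for Slit2 against Mkx-flox/+ with the endothelial covariate (-0.022), and, against both controls, for Ephb4 with limma voom (0.10; -0.30 to 0.14 with 1 library left out), for Efna1 with the muscle covariate (0.052; -0.21 to 0.075) and for Robo4 with the Schwann cell (-0.32) and endothelial (-0.39) covariates and the block (-0.157) (-0.15 to 0.26). The cause was not tested. Over all results and alternatives, 602 kept their direction and side of the threshold or count, 115 lost the threshold with the same direction, 8 gained it, 12 turned and 19 counts moved by over 1.5 times. Where 1 library was left out of a genotype of 3, the spread came from all genotypes together. Depth limits the members under 1 CPM, and counting error is otherwise small beside the spread between libraries.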
